A study of Mus musculus with 12 samples.

Results

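The genes described here are 10 genes of the MHC class I antigen presentation pathway, measured in primary mouse hippocampal neurons after knockdown of the lncRNA *Neuid*. They were chosen by symbol, with earlier results of these data known. They are H2-D1, H2-K1 and H2-T23 (heavy chains), B2m (light chain), Tap1, Tap2 and Tapbp (peptide transport and loading), Psmb8 and Psmb9 (immunoproteasome), and Nlrc5 (transactivator). All 10 were found among the 55471 genes of the count table, and all 10 passed the filter on low counts that left 19578 genes to test. The cultures came from hippocampi of wild-type CD1 embryos at embryonic day 17, from litters of both sexes, and were grown in Neurobasal medium with B27. At DIV 7 (day in vitro), 6 samples received lipid nanoparticles with a control gapmer that has no known target (control) and 6 received a gapmer against *Neuid* (*Neuid* KD), and RNA was taken at DIV 10. A gapmer is an antisense oligonucleotide that directs RNase H to cut the RNA it pairs with, and both groups were exposed to an oligonucleotide and to the nanoparticle. The labels do not say whether the 6 samples of a group are separate cultures, so p-values measure the spread between these samples, which may be technical. CD1 is an outbred stock, whereas the reads were aligned to the C57BL/6J reference, and how many reads of divergent H2 alleles this loses was not tested.

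MHC class I molecules show peptides from inside the cell to cytotoxic T cells. The proteasome cuts proteins into peptides, the transporter made of Tap1 and Tap2 carries them into the endoplasmic reticulum, tapasin (Tapbp) holds an empty heavy chain next to that transporter, and the heavy chain leaves for the surface once it has bound both a peptide and B2m. Interferon raises most of these genes through STAT and IRF factors, it swaps catalytic subunits of the proteasome for Psmb8, Psmb9 and Psmb10, and Nlrc5 acts with the RFX, CREB and NF-Y factors on class I promoters. Neurons keep class I at a low level under resting conditions, where its molecules have been linked to synapse remodelling, and astrocytes and microglia express it as well.

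Control libraries held 18002585 to 30914714 counted reads and *Neuid* KD libraries 11152556 to 30573480. Values are CPM, the reads of a gene relative to the size of its library as scaled by the TMM method. *Neuid* (Gm10419, the targeted gene) ranged from 25.97 to 31.01 CPM in control libraries and from 6.32 to 9.55 CPM after knockdown, without overlap (log2 fold change -1.81, standard error 0.0845). The libraries differed in background, taken as the sum over 2014 genes of smell, pheromone and bitter taste receptors, termed chemosensory receptor genes. This measure was adopted after the counts had been seen. It ran from 26.7 to 667 CPM in control and from 27.1 to 617 CPM in *Neuid* KD. It was at least 100 CPM in 4 control and 3 *Neuid* KD libraries, called high-background libraries below, and under 100 CPM in the other 5, called low-background libraries.

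Of the 10 genes, 5 were lower in *Neuid* KD: H2-K1, H2-D1, Tapbp, Tap1 and Psmb8 (adjusted p under 0.05, edgeR's quasi-likelihood test with Benjamini-Hochberg adjustment over all tested genes). Among all tested genes 2.42% were called lower. Because the 10 genes were chosen with earlier results of these data known, this and the other shares below are descriptions and no test of the pathway. None of the 10 was called higher by edgeR, where 6.31% of tested genes were. At an unadjusted p under 0.05 (edgeR), 0 of the 10 and 2325 of the 19578 tested genes were higher. With DESeq2 it was 0 of the 10 and 1487 of the 15023 genes with an adjusted p. A count of 0 among 10 genes lies close to these shares. With upper-quartile scaling the calls over all genes were 1259 lower and 1049 higher in place of 473 and 1235. The log2 fold change was negative for 9 of the 10 genes and for 10880 of the 19578 tested genes. Its median was -0.50 over the 10 genes and -0.03 over all tested genes. H2-K1 and Psmb8 were called lower with a log2 fold change under -0.5, as 0.792% of tested genes were. For 4 genes, H2-K1, H2-D1, Tapbp and Psmb8, every *Neuid* KD library was under every control library, as for 1.57% of tested genes. DESeq2 called 6 of the 10 lower, Psmb9 being added, and 6.66% of the 15023 genes it gave an adjusted p. DESeq2 with a RUVs factor also called 6 of the 10 lower, and 8.58% of 16162 genes. Neither DESeq2 fit gave H2-T23 an adjusted p, so it could not be called there in either direction. The study's own analysis used DESeq2 with RUVseq, but the factor here was computed anew and may differ. The study also required a log2 fold change beyond 0.5 in either direction. In this fit H2-K1 (-0.89), Psmb8 (-1.64) and Psmb9 (-0.88) reached it, and H2-D1 (-0.40), Tap1 (-0.42) and Tapbp (-0.47) did not. In bulk RNA, fewer cells of a type and less RNA per cell cannot be told apart.

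**Figure D1:**
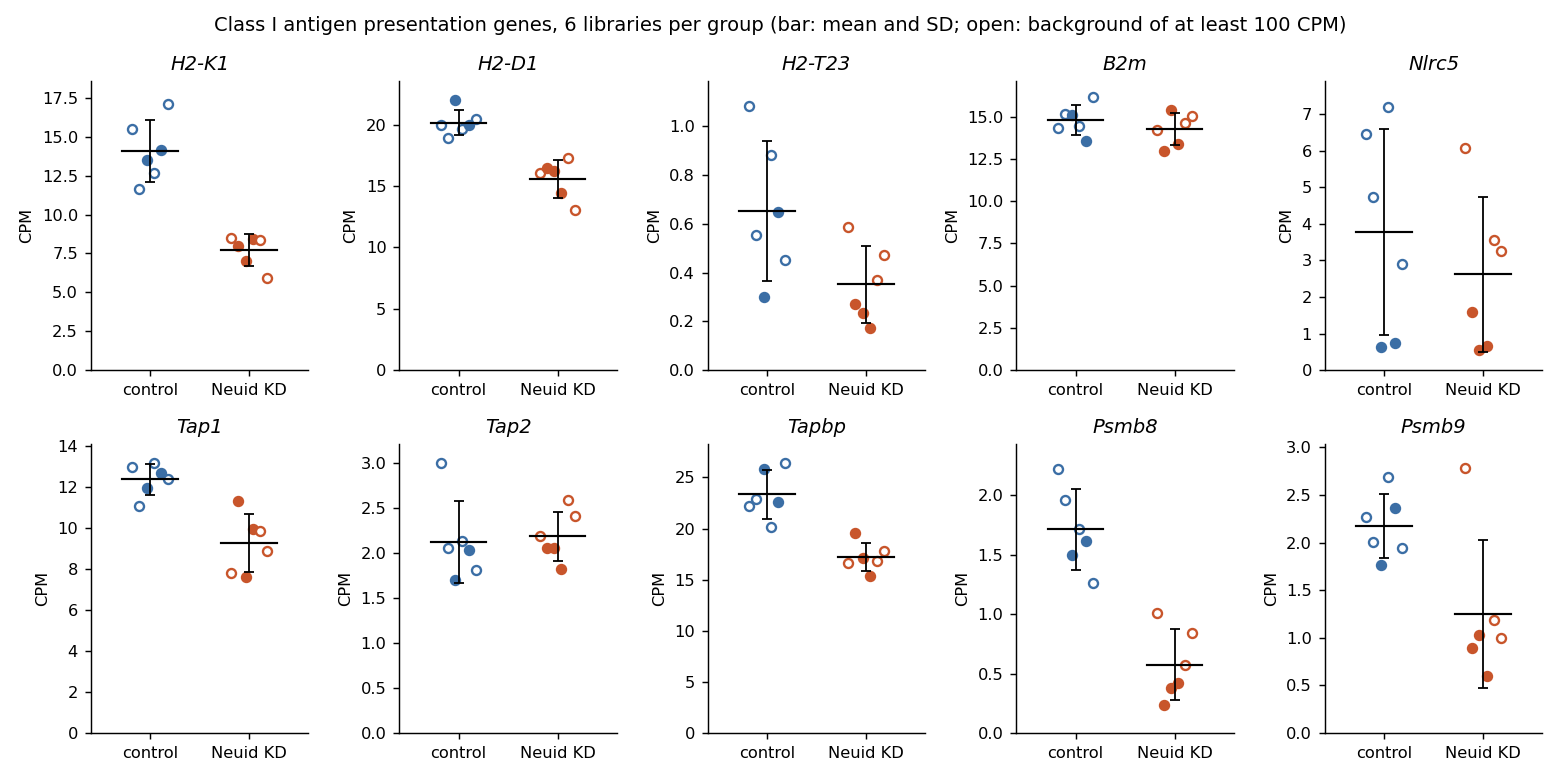
CPM of each of the 10 genes in the 6 control and 6 Neuid KD libraries (y axis, linear, from 0), with open points for high-background libraries, a horizontal line for the mean and a bar for the SD. The groups are apart for H2-K1, H2-D1, Tapbp and Psmb8 and overlap for the other 6 genes, and Nlrc5 spreads from 0.634 to 7.19 CPM within control.

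The genes differed widely in level. Divided by the length of the merged exons, B2m stood at 17.2 ± 1.03 CPM per kb in control (SD, n = 6), above H2-D1 at 7.82 ± 0.398, Tapbp at 6.43 ± 0.650, H2-K1 at 4.80 ± 0.676 and Tap1 at 2.26 ± 0.142 CPM per kb. Below them Psmb9 (0.594 ± 0.0911), Tap2 (0.561 ± 0.121), Psmb8 (0.507 ± 0.100) and Nlrc5 (0.445 ± 0.331 CPM per kb) were closer to each other than their spread, and H2-T23 came last at 0.226 ± 0.0994 CPM per kb. In *Neuid* KD the first 5 kept this order (16.6, 6.04, 4.75, 2.62 and 1.69 CPM per kb), and Tap2, at 0.578 ± 0.0724 CPM per kb, then stood above Psmb9 (0.341 ± 0.212), Nlrc5 (0.308 ± 0.248) and Psmb8 (0.170 ± 0.0877 CPM per kb). The light chain was thus present at a higher level per length than each heavy chain in both groups.

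Of the heavy chains, H2-K1 and H2-D1 are the classical class I genes, which present peptides to T cells. H2-K1 (ENSMUSG00000061232, chr17:33996017-34000347, GRCm38, minus strand) ranged from 11.6 to 17.1 CPM in control, with a median of 13.8, and from 5.91 to 8.50 CPM in *Neuid* KD, with a median of 8.16. The groups did not overlap, and 54.6% of the control mean remained (14.1 ± 1.98 against 7.70 ± 1.03 CPM, SD, n = 6 each). edgeR put the log2 fold change at -0.87 with a standard error of 0.104 (adjusted p = 1.6e-05). It was -0.90 within high-background and -0.85 within low-background libraries, and the call held in both.

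H2-D1 (ENSMUSG00000073411, chr17:35262730-35267499, plus strand) ranged from 18.9 to 21.98 CPM in control, with a median of 19.98, and from 13.03 to 17.3 CPM in *Neuid* KD, with a median of 16.1. Here too the groups were apart, but 77.2% of the control mean remained (20.2 ± 1.03 against 15.6 ± 1.56 CPM, SD, n = 6 each). edgeR put the log2 fold change at -0.37 with a standard error of 0.0673 (adjusted p = 0.0012). Within low-background libraries it was -0.46 (adjusted p = 0.0029), and within high-background libraries it was -0.34 and missed the threshold (adjusted p = 0.0718, edgeR).

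H2-K1 fell further than H2-D1. The ratio of H2-K1 to H2-D1 within a library, which does not depend on how libraries are scaled, was 0.614 to 0.837 in control and 0.434 to 0.585 in *Neuid* KD. Every *Neuid* KD library was under every control library, and the log2 ratio differed by -0.49 (exact permutation test, two-sided, p = 0.002165, which is the lowest that 6 against 6 libraries can reach, and 0.0054 after adjustment over the 5 ratios tested). Reads of 50 bases can be shared between class I genes: 9.63% of the 50-base windows in H2-K1 transcripts and 12.8% of those in H2-D1 transcripts occur in a transcript of another gene. Between H2-K1 and H2-D1 themselves, 141 windows are shared, which is 4.08% of H2-K1 and 5.44% of H2-D1. How the counting treated such reads is not given in the sources used here.

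Because H2-K1 and H2-D1 fell by different amounts, a stretch upstream of each RefSeq start site on GRCm38.p6 is shown, on the strand of the gene. For H2-K1 it is chr17:34000348-34000467, minus strand, and for H2-D1 chr17:35262914-35263033, plus strand. Capitals mark, from left to right, a kappaB-like match (GGGNNTTCC), the reverse strand of a match to GAANNGAAA, and the reverse strand of a CCAAT box.
H2-K1: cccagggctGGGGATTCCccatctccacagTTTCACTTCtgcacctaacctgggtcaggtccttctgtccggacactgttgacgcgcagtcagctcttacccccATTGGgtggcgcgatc
H2-D1: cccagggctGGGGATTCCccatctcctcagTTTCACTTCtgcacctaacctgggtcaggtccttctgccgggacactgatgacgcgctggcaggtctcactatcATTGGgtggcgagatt
Over these stretches 107 of 120 bases are identical (89.2%), and all 3 matches stand at the same place within both. By these RefSeq starts the stretches differ in their distance from the start site. They run from 120 bases to 1 base before that of H2-K1 and from 180 to 61 bases before that of H2-D1. A second RefSeq window of H2-K1 has another start, from which the kappaB-like match stands at -125 to -117 in place of -111 to -103. GENCODE, which gave the gene positions above, starts H2-D1 at 35262730, so the H2-D1 stretch lies inside that gene. The distances thus depend on the start used. In the 32851 RefSeq promoter windows, which run from 250 bases before the start site to 50 bases after it, GGGNNTTCC was found on either strand in 5.82%, GAANNGAAA in 7.52% and CCAAT in 37.4%. The letters GAANNGAAA resemble GAAANNGAA, the core of the interferon-stimulated response element, with the extra A in the other repeat. They were added to the search after the windows had been seen.

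B2m encodes the invariant light chain and lies outside the H2 region (ENSMUSG00000060802, chr2:122147686-122153083, plus strand). It ranged from 13.6 to 16.1 CPM in control, with a median of 14.8, and from 12.997 to 15.4 CPM in *Neuid* KD, with a median of 14.4. The groups overlapped over most of their range, and 96.5% of the control mean was measured in *Neuid* KD (log2 fold change -0.05, standard error 0.0612, adjusted p = 0.765 from edgeR). It had 169 to 452 reads per library, a depth close to that of H2-K1 (101 to 405 reads), and 0% of its 811 windows of 50 bases occur in another gene's transcript. Its promoter is shown for comparison with the heavy chains (chr2:122147537-122147656, plus strand), with a match to GAAANNGAA, the core of the interferon-stimulated response element, and the reverse strand of a CCAAT box in capitals.
B2m: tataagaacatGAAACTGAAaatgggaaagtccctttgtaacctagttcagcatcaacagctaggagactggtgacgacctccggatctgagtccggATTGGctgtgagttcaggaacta
GAAANNGAA was found in 8.56% of all promoter windows and, of the 8 genes described here with a RefSeq window, in those of B2m and H2-T23. A match describes letters and shows no binding. Tap2 and Nlrc5 were not among the windows used here.

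H2-T23, which encodes the nonclassical chain Qa-1, had 5 to 21 reads per library (ENSMUSG00000067212, chr17:36029773-36032855, minus strand). It ranged from 0.300 to 1.08 CPM in control and from 0.175 to 0.589 CPM in *Neuid* KD, with overlap (log2 fold change -0.91, standard error 0.510, adjusted p = 0.389 from edgeR). At this depth a change of the size seen for H2-K1 was not detectable. Of the other class I and class I-like chains, 14 of the 29 in the table could be tested, of which 2 were lower and 0 higher, with a median log2 fold change of -0.49. At an unadjusted p under 0.05, 3 were lower and 0 higher (edgeR), DESeq2 called 2 lower and 0 higher, and edgeR with a RUVs factor 3 lower and 1 higher. The 2 lower genes were the nonclassical H2-Q4, from 3.26 ± 0.496 to 1.68 ± 0.280 CPM (log2 fold change -0.95, adjusted p = 0.0022), and H2-Q2, from 2.96 ± 0.361 to 1.503 ± 0.349 CPM (-0.98, adjusted p = 0.0044, edgeR, SD, n = 6 each). Both had no overlap between groups. H2-Q4 missed the threshold within high-background libraries (adjusted p = 0.131), and H2-Q2 missed it within both classes (0.0920 and 0.0579, edgeR). H2-T22, which is recognised by some gamma delta T cells, was at 1.64 ± 0.323 and 1.42 ± 0.418 CPM (adjusted p = 0.805, edgeR). These chains are close copies: 36.4% of the 50-base windows of H2-Q4, 16.1% of H2-Q2 and 53.5% of H2-T22 occur in other genes, so their values are uncertain.

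Of the genes for peptide transport and loading, Tapbp and Tap1 were called lower and Tap2 was not. Tapbp, the bridge between the peptide transporter and the empty heavy chain (ENSMUSG00000024308, chr17:33915899-33929292, plus strand), ranged from 20.1 to 26.4 CPM in control, with a median of 22.8, and from 15.3 to 19.6 CPM in *Neuid* KD, with a median of 16.97. The groups were apart, and 73.8% of the control mean remained (23.3 ± 2.36 against 17.2 ± 1.42 CPM, SD, n = 6 each). edgeR put the log2 fold change at -0.44 with a standard error of 0.0736 (adjusted p = 5.7e-04), and Tapbp was called lower within both background classes. Of its 50-base windows, 23.2% occur in another transcript, 20.3% in Gm19412, which is annotated on the opposite strand and shares 904 exon bases with Tapbp.

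Tap1, a subunit of the peptide transporter (ENSMUSG00000037321, chr17:34187553-34197225, plus strand), ranged from 11.1 to 13.2 CPM in control, with a median of 12.5, and from 7.63 to 11.3 CPM in *Neuid* KD, with a median of 9.39. In 5 of 6 *Neuid* KD libraries it was under the lowest control, and *Neuid* KD 2, at 11.3 CPM, overlapped. Its mean fell to 74.8% of control (12.4 ± 0.776 against 9.26 ± 1.42 CPM; log2 fold change -0.40, standard error 0.0897, adjusted p = 0.0068 from edgeR). Within low-background libraries the log2 fold change was -0.38 and missed the threshold (adjusted p = 0.0949, edgeR).

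Tap2, the other subunit (ENSMUSG00000024339, chr17:34203527-34216321, plus strand), ranged from 1.70 to 2.99 CPM in control, with a median of 2.04, and from 1.82 to 2.58 CPM in *Neuid* KD, with a median of 2.12. No *Neuid* KD library was under the lowest control. edgeR put the log2 fold change at 0.05 with a standard error of 0.200 (adjusted p = 0.944), and it was -0.02 with upper-quartile scaling, so no direction is given. The ratio of Tap1 to Tap2 within a library fell from 6.01 ± 0.999 to 4.30 ± 0.930 (SD, n = 6 each), a log2 difference of -0.49 with overlap between the groups (two-sided exact permutation test, p = 0.0195, 0.0244 after adjustment over the 5 ratios). By this test the transcripts of the 2 subunits, whose genes lie beside each other and beside Psmb8 and Psmb9, changed by different amounts. An exact sign-flip test within replicate numbers missed the threshold (adjusted p = 0.0781). Tap2 had only 26 to 63 reads per library. It also shares 533 exon bases with Gm15821 and 165 with Gm20496, both on the opposite strand. What part these overlaps have in the Tap2 counts was not tested.

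Of 12 further genes for peptide trimming and loading, 1 was lower and 1 higher, with a median log2 fold change of 0.03. Erap1, the aminopeptidase that trims peptides in the endoplasmic reticulum, was at 7.50 ± 1.201 CPM (SD, n = 6) in control, against 5.69 ± 0.424 CPM after knockdown (log2 fold change -0.41, adjusted p = 0.0208, edgeR). Its call was lost within high-background libraries (adjusted p = 0.611) and without control 3, *Neuid* KD 2 or *Neuid* KD 4 (0.0600 to 0.0661, edgeR). Calr, a chaperone that also serves many other glycoproteins, was higher, from 537 ± 31.2 to 623 ± 35.4 CPM (log2 fold change 0.21, adjusted p = 0.0122, edgeR). That call was lost within high-background libraries and without control 2 or without *Neuid* KD 2, 3, 4 or 6 (adjusted p = 0.217 in the first case and 0.0581 to 0.103 in the others, edgeR).

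**Figure D2:**
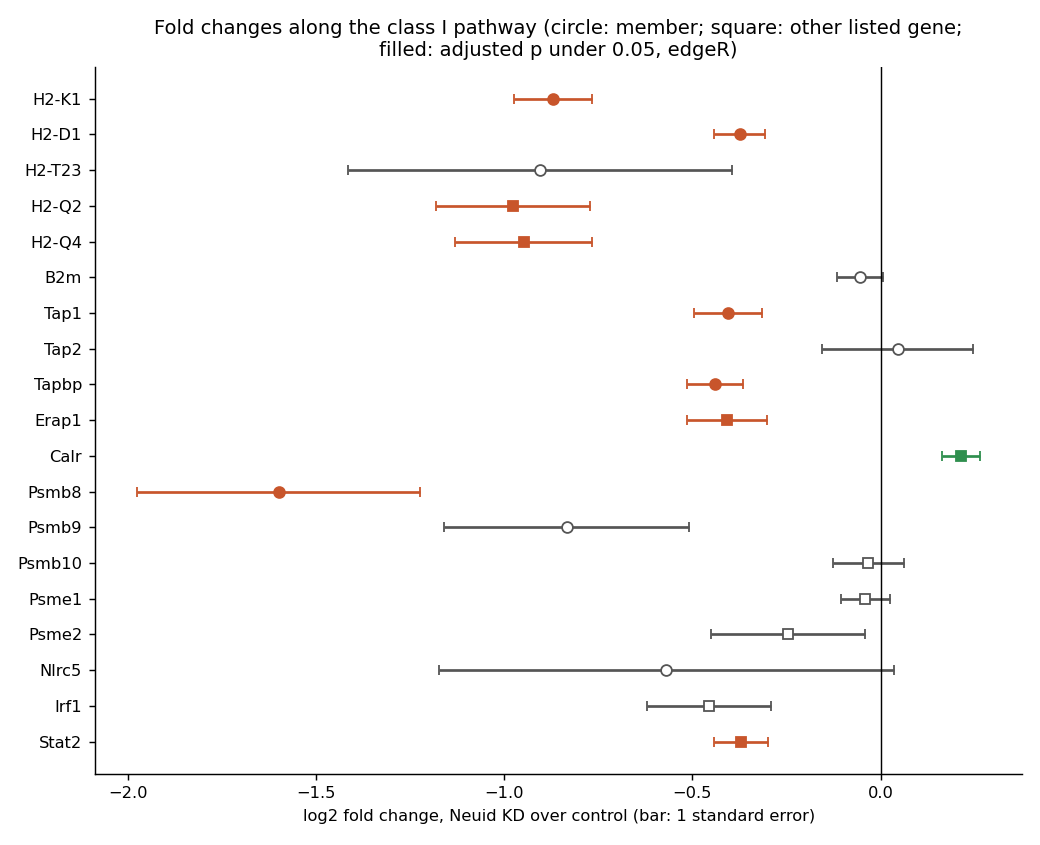
Log2 fold change of Neuid KD over control (x axis) with 1 standard error for the 10 genes (circles) and 9 other genes of the pathway (squares), ordered by role from heavy chains to regulators. Filled symbols have an adjusted p under 0.05 from edgeR, and Psmb8 lies farthest to the left at -1.60 while B2m, Tap2, Psmb10 and Psme1 lie next to 0.

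The immunoproteasome subunits replace the constitutive catalytic subunits Psmb5, Psmb6 and Psmb7. Psmb8, which takes the place of Psmb5 (ENSMUSG00000024338, chr17:34197721-34201454, plus strand), ranged from 1.27 to 2.22 CPM in control, with a median of 1.67, and from 0.233 to 1.01 CPM in *Neuid* KD, with a median of 0.497. The groups were apart, with 33.5% of the control mean left (1.71 ± 0.339 against 0.575 ± 0.297 CPM, SD, n = 6 each). edgeR put the log2 fold change at -1.60 with a standard error of 0.376 (adjusted p = 0.0106) on 6 to 46 reads per library. It was -2.20 within low-background libraries (adjusted p = 0.0027) and -1.16 within high-background libraries, where it missed the threshold (adjusted p = 0.206, edgeR). In *Neuid* KD, the 3 high-background libraries held 0.574 to 1.01 CPM and the 3 low-background libraries 0.233 to 0.420 CPM. In control, the high-background libraries spanned 1.27 to 2.22 CPM, and the low-background libraries lay within that range. With the background as a covariate in edgeR, Psmb8 stayed lower (log2 fold change -1.62, adjusted p = 4.5e-05). How much of the Psmb8 level comes from the background was not tested.

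Psmb9, which takes the place of Psmb6 (ENSMUSG00000096727, chr17:34181987-34187764, minus strand), ranged from 1.77 to 2.69 CPM in control, with a median of 2.14. In *Neuid* KD, 5 libraries were at 0.594 to 1.19 CPM, under the lowest control, and *Neuid* KD 1 was at 2.78 CPM, above the highest control. The log2 fold change was -0.83 and missed the threshold (standard error 0.325, adjusted p = 0.148 from edgeR). Without *Neuid* KD 1, the library with the fewest reads, it was -1.25 (adjusted p = 0.0044, edgeR), and within low-background libraries -1.33 (adjusted p = 0.0216, edgeR). Psmb9 also passed with DESeq2 (adjusted p = 0.0234) and with the background as a covariate in edgeR (0.0123).

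Set against their constitutive counterparts within a library, Psmb8 and Psmb9 were both lower. The ratio of Psmb8 to Psmb5 was 0.418 to 0.843 in control and 0.0723 to 0.291 in *Neuid* KD, without overlap, a log2 difference of -1.83 (two-sided exact permutation test, p = 0.002165, 0.0054 after adjustment). The ratio of Psmb9 to Psmb6 was 0.0343 ± 0.0067 in control and 0.0184 ± 0.0113 in *Neuid* KD (SD, n = 6 each), a log2 difference of -1.05 with overlap through *Neuid* KD 1 (exact permutation p = 0.0130, adjusted 0.0216). The ratio of Psmb10, the other inducible subunit, to Psmb7 was 0.169 ± 0.0169 and 0.155 ± 0.0198, a difference of -0.13 that missed the threshold (exact permutation p = 0.212).

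Elsewhere in the proteasome no listed gene passed with edgeR without a RUVs factor. Psmb10 was at 7.44 ± 0.714 CPM (SD, n = 6) in control, against 7.32 ± 0.841 CPM after knockdown (log2 fold change -0.03, adjusted p = 0.913, edgeR). A further list held Psmb10, Psme1, Psme2, Psme3, Psme4 and Pomp. Of these 6 genes 0 passed in either direction with edgeR, and 1 was higher at an unadjusted p under 0.05. With DESeq2, or with a RUVs factor in edgeR, 1 was higher. Psme1 and Psme2, which encode the interferon-inducible PA28 ring, had log2 fold changes of -0.04 (adjusted p = 0.838) and -0.25 (adjusted p = 0.643, edgeR). Of the 14 constitutive core subunits 0 passed with edgeR or DESeq2, 1 was higher with a RUVs factor in edgeR and 1 at an unadjusted p under 0.05, with a median log2 fold change of 0.06. Among them Psmb5 changed by 0.12, Psmb6 by 0.08 and Psmb7 by 0.10 on the log2 scale, each with an adjusted p above 0.05 (0.806, 0.533 and 0.411, edgeR).

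**Figure D3:**
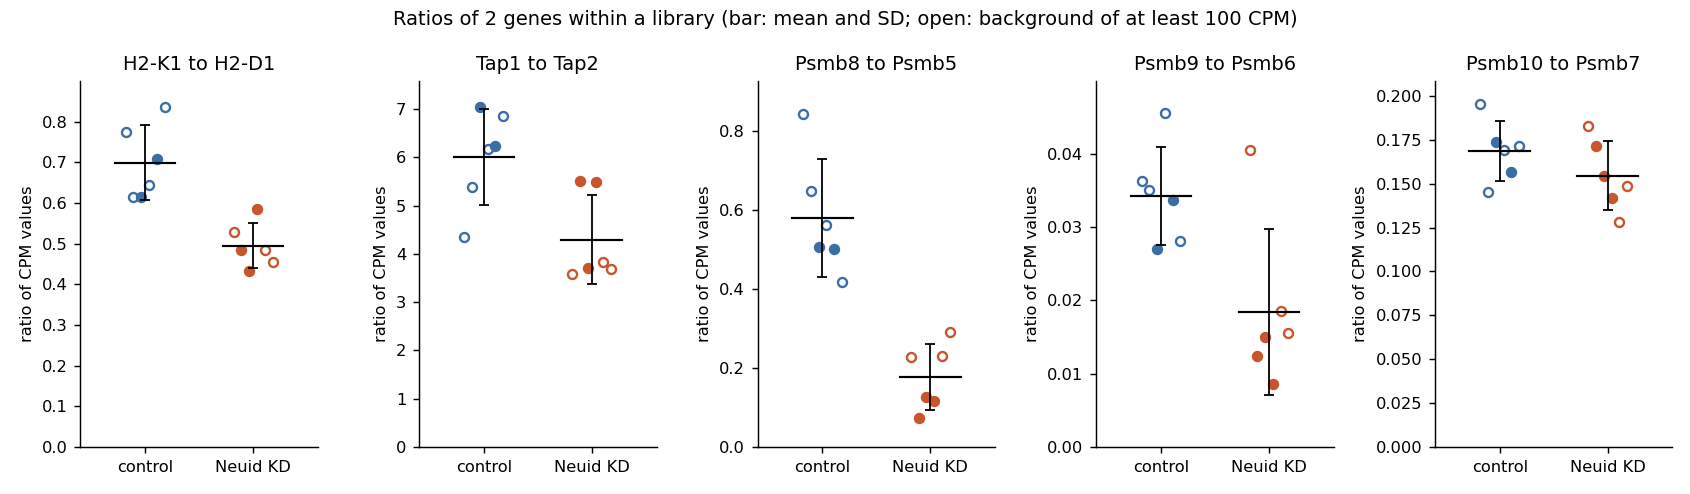
Ratio of the CPM of 2 genes within each library (y axis, linear, from 0) for 5 pairs, with open points for high-background libraries, a line for the mean and a bar for the SD of 6 libraries. Control and Neuid KD are apart for H2-K1 to H2-D1 and for Psmb8 to Psmb5, and overlap for the other 3 pairs.

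Tap1 and Psmb9 are read in opposite directions from a shared start region, and Psmb8 lies next to them, so bases before their RefSeq start sites are shown. The 225 bases between the RefSeq start sites of Psmb9 and Tap1 (chr17:34187331-34187555, in the direction of Tap1) hold a CCAAT box, in capitals, at the Psmb9 end. The 110 bases before the RefSeq start of Psmb8 (chr17:34198085-34198194, plus strand) hold a match to TTCNNNGAA, the letters of the gamma-activated site bound by STAT factors, in capitals. The gene positions given above come from GENCODE, which starts Psmb9 at 34187764 and Psmb8 at 34197721. By those starts the first stretch lies inside Psmb9 and the second inside Psmb8.
Tap1: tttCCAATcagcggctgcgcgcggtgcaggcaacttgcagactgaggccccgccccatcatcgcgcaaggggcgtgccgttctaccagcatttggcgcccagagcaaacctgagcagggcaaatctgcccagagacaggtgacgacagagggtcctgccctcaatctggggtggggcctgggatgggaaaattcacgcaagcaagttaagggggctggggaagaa
Psmb8: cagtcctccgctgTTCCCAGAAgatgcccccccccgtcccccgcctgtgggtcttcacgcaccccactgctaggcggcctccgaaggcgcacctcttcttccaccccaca
TTCNNNGAA was found on either strand in 8.30% of all promoter windows and, of the 8 genes with a window, in that of Psmb8 alone. The exons of Tap1 and Psmb9 overlap by 212 bases on opposite strands. Psmb8 shares 498 exon bases with Gm20496 on the opposite strand. The strand setting of the counting is not given in the sources used here, so reads in these overlaps could have been assigned to either gene or to none.

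Nlrc5, the transactivator of class I genes (ENSMUSG00000074151, chr8:94434356-94527272, plus strand), could not be compared with the same precision. It ranged from 0.634 to 7.19 CPM in control, with a median of 3.82, and from 0.561 to 6.06 CPM in *Neuid* KD, with a median of 2.42 (log2 fold change -0.57, standard error 0.604, adjusted p = 0.744 from edgeR). Leaving out 1 library moved this value from -0.27 (without control 4) to -1.02 (without *Neuid* KD 1), and it was -0.20 with the background as a covariate. The level of Nlrc5 moved with the background of the library. In high-background libraries control held 2.89 to 7.19 CPM and *Neuid* KD 3.24 to 6.06 CPM (log2 fold change -0.33), and in low-background libraries at 0.634 to 0.740 and 0.561 to 1.59 CPM (0.43, adjusted p = 0.721, edgeR). The sign thus differed between the classes, and the groups overlapped in both. For H2-K1 the groups were apart over all 12 libraries, which means that they were also apart on each side of the boundary.

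**Figure D4:**
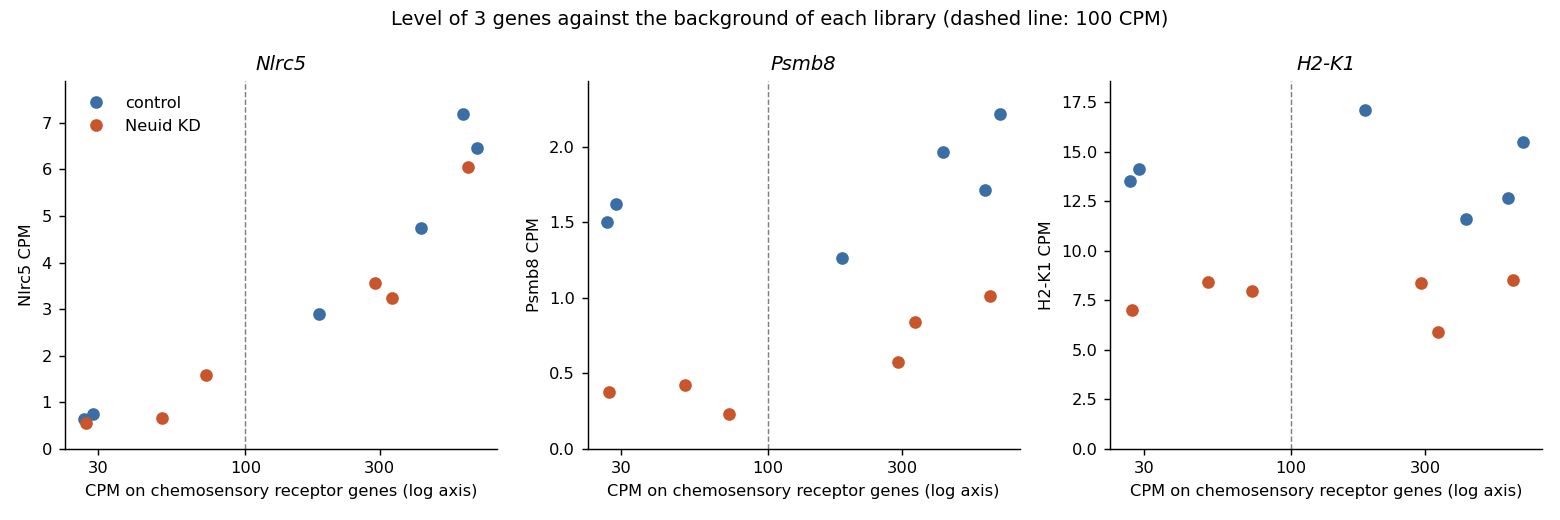
CPM of Nlrc5, Psmb8 and H2-K1 (y axes, linear, from 0) against the summed CPM on chemosensory receptor genes (x axis, log scale) in the 12 libraries, with the boundary of 100 CPM dashed. Nlrc5 is at or below 1.59 CPM in every library under the boundary and at or above 2.89 CPM in every library over it. The H2-K1 points of the 2 groups are apart over all 12 libraries, and so on both sides.

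Of the 14 promoter-binding factors of class I genes (RFX, CREB and NF-Y subunits and others), 1 was lower and 2 were higher, with a median log2 fold change of 0.06. Nfya, the DNA-contacting subunit of the factor that binds CCAAT boxes, was lower without overlap, from 50.8 ± 1.505 to 43.3 ± 3.34 CPM (log2 fold change -0.23, adjusted p = 0.0090), and missed the threshold within high-background libraries (adjusted p = 0.0640, edgeR). Rfxank, a subunit of the RFX complex, was higher, from 6.65 ± 0.509 to 8.96 ± 1.83 CPM (0.42, adjusted p = 0.0336, edgeR), as was Sp1, a general activator, from 34.5 ± 2.44 to 40.1 ± 1.70 CPM (0.22, adjusted p = 0.0153, edgeR). Both calls were lost within low-background libraries (adjusted p = 0.231 and 0.259, edgeR) and when 1 library was left out, in 9 of the 12 such fits for Rfxank (adjusted p up to 0.125) and in 7 for Sp1 (up to 0.127, edgeR).

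Interferon ligands, receptors and signalling genes could be tested for 17 of 23 genes, of which 1 was lower and 0 higher, with a median log2 fold change of -0.17. At an unadjusted p under 0.05, 4 were lower and 2 higher (edgeR), and DESeq2 with a RUVs factor called 3 lower and 2 higher. Stat2, which with Irf9 is part of the complex that binds interferon-stimulated response elements, was lower without overlap, from 23.1 ± 1.94 to 17.8 ± 1.64 CPM (log2 fold change -0.37, adjusted p = 0.0020, edgeR, n = 6 each). Irf1, a direct activator of class I promoters, was at 4.35 ± 0.908 and 3.19 ± 0.541 CPM (-0.46, adjusted p = 0.110, edgeR). Irf1 passed with DESeq2 and a RUVs factor (adjusted p = 0.0294). Ifnb1, Ifng, Ifna1, Ifna2, Ifna4 and Ifne had 0 reads in at least 1 library.

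The class II pathway and the receptors of class I gave little to test. Of the 11 class II chains and partners 5 could be tested, of which 0 passed with edgeR or DESeq2, 1 was lower with a RUVs factor in edgeR and 1 at an unadjusted p under 0.05, with a median log2 fold change of -0.48. Cd74, the invariant chain, was at 0.936 ± 0.262 and 0.207 ± 0.305 CPM (log2 fold change -2.27, adjusted p = 0.146, edgeR). Of the 10 receptors that read class I, such as Cd8a and natural killer receptors, only Klrk1 passed the filter, and 0 were called.

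The H2 region on chromosome 17 holds 8 of the 10 genes. From the start of Tapbp at 33915899 to that of H2-T23 at 36029773 it holds 195 other genes that are not class I chains, of which 93 could be tested. Of these 2 were lower, 2 were higher and 89 passed in neither direction, with a median log2 fold change of 0.01. The lower genes were Ier3, an early response gene, from 2.66 ± 0.378 to 0.943 ± 0.188 CPM (-1.49, adjusted p = 2.1e-04), and the chloride channel protein Clic1, from 9.32 ± 1.42 to 6.52 ± 0.631 CPM (-0.51, adjusted p = 0.0033, edgeR). The higher genes were Nelfe, a subunit of the factor that pauses RNA polymerase II (0.35, adjusted p = 0.0104), and the collagen receptor Ddr1 (0.19, adjusted p = 0.0160, edgeR).

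The genes whose pattern over the 12 libraries was most like that of H2-K1 were named among 15196 genes outside the 10 with a mean of at least 1 CPM, by Pearson's r of log2 CPM, given as a description. They were Gbp3, an interferon-induced GTPase (r = 0.969), S1pr3, a sphingosine-1-phosphate receptor (0.962), Scg2, a granin of secretory vesicles (0.944), H2-Q2 (0.944) and Gpd1, a glycerol-3-phosphate dehydrogenase (0.943). The group difference is part of these values, and with the group means removed r was 0.779, 0.775, 0.569, 0.693 and 0.615. The levels fell from 8.28 ± 1.81 to 2.57 ± 0.438 CPM for Gbp3 and from 19.3 ± 2.12 to 5.44 ± 0.931 CPM for S1pr3 (adjusted p = 6.0e-07 and 1.2e-09, edgeR, n = 6 each). Of the 10 genes themselves, H2-D1 was closest to H2-K1 (r = 0.905, 0.545 within groups), followed by Tapbp (0.826, 0.113) and Tap1 (0.818, 0.308). Psmb8 had 0.745 over all libraries and -0.22 within groups. B2m (0.201), Nlrc5 (0.154) and Tap2 (-0.14) were far from it.

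The marker lists of cell types moved in several directions beside these genes. Neuronal markers summed to 6218 to 7307 CPM in control and 6171 to 7327 CPM in *Neuid* KD, led by Map2 and Stmn2, with 1 of 12 lower and 1 higher. Homeostatic astrocyte markers, led by Slc1a2 and Slc1a3, summed to 1685 to 2149 CPM in control and 3144 to 3839 CPM in *Neuid* KD, with 10 of 11 tested higher. Reactive astrocyte markers summed to 748 to 841 and 606 to 629 CPM, with Vim, Cp and S1pr3 lower and Gfap and Osmr higher among 9 tested. Markers of oligodendrocyte precursors and oligodendrocytes summed to 112 to 127 CPM in control libraries and 257 to 304 CPM after knockdown, with Olig1 and Olig2 higher, Mbp lower and 5 of 8 passing in neither direction.

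Markers of immune and vascular cells were low. Microglial markers summed to 16.2 to 24.1 CPM in control and 14.1 to 24.2 CPM in *Neuid* KD, and 0 of the 6 tested passed with edgeR, at an unadjusted p under 0.05 or with DESeq2. The defining genes Cx3cr1, P2ry12, Tmem119, Itgam, C1qa, C1qb, C1qc and Trem2 had 0 reads in at least 1 library. Markers of other leukocytes summed to 1.11 to 17.5 and 1.40 to 12.7 CPM, those of endothelial cells to 7.26 to 27.9 and 7.11 to 26.0 CPM, and those of fibroblasts and mural cells to 40.3 to 73.6 and 37.8 to 62.3 CPM, with ranges that overlapped between groups. The part of any cell type in the levels of H2-K1, H2-D1, Tapbp, Tap1 and Psmb8 was not tested.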

How the data were processed

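RNA from 12 samples was made into libraries with a stranded total RNA kit for small inputs and sequenced as single reads of 50 bases. The authors aligned the reads with STAR to mm10 (GRCm38) and deposited raw counts per Ensembl gene from featureCounts, without normalization. Strand setting, treatment of multi-mapping reads and annotation release are not given in the sources used here. The authors' own testing used DESeq2 with RUVseq.

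Symbols and positions came from the GENCODE M21 annotation of GRCm38. Counts were tested with edgeR 4.0.16 in R 4.3.3 (filterByExpr, TMM, quasi-likelihood test of *Neuid* KD against control, Benjamini-Hochberg adjustment over 19578 genes), and a call needed an adjusted p under 0.05. DESeq2 1.42.0, 1 RUVs factor, other scalings, filters, background classes and leaving out each library were alternatives. The procedure was tested on simulated data. Standard errors of log2 fold changes were derived from the test, as the absolute log2 fold change divided by the square root of its F statistic. Within-library ratios were compared by exact permutation. Log2 CPM for likeness used a prior count of 2. Named besides the 10 genes were *Neuid*, a fixed list of pathway genes, the up to 3 called genes of each pathway list with the largest change, the 5 genes most like H2-K1, called genes of the H2 region and the 2 highest markers per cell type. Cd74 and the interferon genes with 0 reads in some libraries were chosen after their values were seen. Members and lists were chosen with earlier results of these data known. Some genes of these lists are not reported here.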

Additional observations from a re-analysis of the deposited data

Results flagged for a closer look

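Among the groups of 6 libraries examined for a single distant value (30 groups, of which chance flags about 1 in 20), 2 were flagged. Psmb9 was at 2.78 CPM in *Neuid* KD 1, where the other *Neuid* KD libraries held 0.594 to 1.19 CPM. Tap2 was at 2.99 CPM in control 1, where the other control libraries held 1.70 to 2.13 CPM. Both libraries were among the 7 high-background ones, and what part the background has in these values was not tested.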

How the results depend on the processing

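*Neuid*, H2-K1 and Tapbp kept their direction and call under all 23 alternatives. H2-D1 and Psmb8 were lost within high-background libraries and Tap1 within low-background libraries, where 7 and 5 libraries remain, and 3 of the 10 genes were called lower within high-background libraries. Leaving out 1 library gave 5 to 6 of the 10, the added gene being Psmb9 without *Neuid* KD 1. Tap2 reversed with upper-quartile scaling (-0.020) and without control 3 (-0.0091), control 6 (-0.0065), *Neuid* KD 5 (-0.044) or *Neuid* KD 6 (-0.019), within -0.044 to 0.167 when 1 library was left out, and Nlrc5 reversed within low-background libraries (0.43). The causes were not tested. H2-T23 was filtered out of the low-background fit, and DESeq2 gave it no adjusted p. Rfxank lost its call in 9 and Sp1 in 7 of the 12 fits without 1 library. With no filter on low counts, Erap1, Calr, Nfya and Sp1 lost their calls (adjusted p 0.0885, 0.640, 0.281 and 0.271, edgeR), Sp1 was also lost within high-background libraries (0.267), and Rfxank with upper-quartile scaling (0.0978).

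Over all genes, 473 were called lower, and 1259 with upper-quartile scaling, 1000 with DESeq2, 988 with a RUVs factor in edgeR, 1387 with DESeq2 and a RUVs factor, 987 with the background as covariate, 781 at a mean of at least 1 CPM, 229 without a filter, 205 within high-background and 799 within low-background libraries. Leaving out 1 library gave 355 to 780, the highest without *Neuid* KD 1. Of higher genes there were 1235, and 1049 with upper-quartile scaling, 1487 with DESeq2, 1757 with a RUVs factor in edgeR, 1695 with DESeq2 and a RUVs factor, 1776 with the background as covariate, 1495 at a mean of at least 1 CPM, 1110 within low-background libraries, 651 within high-background libraries, 711 without a filter and 822 to 1208 without 1 library, the lowest without *Neuid* KD 2.

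Same-numbered libraries deviated together for numbers 1 and 3 (correlations 0.774 and 0.751). For numbers 2, 4, 5 and 6 they did not (-0.64 to 0.0037), so the numbers were not taken as pairs. With the replicate number as a block, 542 genes were lower and 1299 higher, 5 of the 10 genes among the former. An exact sign-flip test within numbers, which cannot give a p under 0.03125, left the log2 ratios at -0.49 (H2-K1 to H2-D1 and Tap1 to Tap2), -1.83 (Psmb8 to Psmb5) and -1.05 (Psmb9 to Psmb6), each with an adjusted p of 0.0781. Depth limits H2-T23, Psmb8 and Nlrc5, with 5, 6 and 12 reads in their lowest library.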
